A study of Mus musculus with 12 samples.

Results

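A set of 6 genes whose products are secreted or carried into the fluid of the normal mouse prostate, *Sbp*, *Msmb*, *Pbsn*, *Tgm4*, *Pigr* and *Spink3*, were described in 12 orthotopic prostate tumours. They were chosen by gene symbol and make up 6 of the 23479 rows of the count table. *Spink3* is the symbol in the table for the gene now called *Spink1*. The tumours were grown from the mouse prostate cancer cells PTE-82, which carry TMPRSS2-ERG per the labels. All mice were C57BL/6J, and each host received 100000 cells in its prostate, in 40 µl of a mix of Matrigel with PBS. The host gland, with its own epithelium, was therefore the site of injection, and whether any of it was in the samples is not stated. The 4 groups of 3 tumours were control IgG, anti-CSF1 on days 9 and 14, which is an antibody to a growth factor of macrophages, Lupron at 0.6 mg per mouse on day 4, and Lupron with anti-CSF1 (the combination). Lupron is a GnRH agonist, which lowers testosterone through the pituitary. Tumours were taken on day 17 after perfusion with PBS. The age of the mice was not stated, nor whether those on Lupron also received IgG. Nothing in the labels says which part of the gland was cut out with each tumour.

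The mouse prostate has anterior, dorsal, lateral and ventral lobes, whose luminal cells secrete different proteins under the control of androgen. The spermine-binding protein gene *Sbp* is a product of the ventral lobe, and *Msmb*, which encodes beta-microseminoprotein, is typical of the lateral lobe. *Tgm4* encodes the transglutaminase that cross-links seminal proteins into the copulatory plug and is made in the anterior lobe (the coagulating gland) and the dorsal lobe. *Pbsn* encodes probasin, a lipocalin best known from the dorsolateral lobes. *Pigr* encodes the receptor that carries polymeric immunoglobulin across many epithelia, and *Spink3* encodes a trypsin inhibitor made in the seminal vesicle, the prostate and the pancreas. The lobes named here are background and were not measured.

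Promoter sequence is shown for *Pbsn*, *Tgm4* and *Pigr*, the 3 genes whose levels moved together in 11 of the tumours, as given further on. The 250 bases before the RefSeq start of each gene (GRCm38.p6) are printed 5′ to 3′ on the gene's strand. Capitals mark TGTTCT, the half-site of the androgen response element, on either strand (AGAACA on the other).
Pbsn, chrX:77853501-77853750, minus strand: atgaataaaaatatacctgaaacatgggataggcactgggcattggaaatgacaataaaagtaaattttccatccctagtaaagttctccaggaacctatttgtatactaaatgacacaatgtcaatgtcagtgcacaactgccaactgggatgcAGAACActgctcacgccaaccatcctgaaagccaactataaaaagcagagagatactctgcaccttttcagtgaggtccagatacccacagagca
Tgm4, chr9:123034491-123034740, plus strand: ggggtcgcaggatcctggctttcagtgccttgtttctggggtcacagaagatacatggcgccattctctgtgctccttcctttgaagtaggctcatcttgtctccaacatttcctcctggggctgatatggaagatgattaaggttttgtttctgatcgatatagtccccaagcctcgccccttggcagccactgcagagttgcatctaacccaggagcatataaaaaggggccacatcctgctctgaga
Pigr, chr1:130826434-130826683, plus strand: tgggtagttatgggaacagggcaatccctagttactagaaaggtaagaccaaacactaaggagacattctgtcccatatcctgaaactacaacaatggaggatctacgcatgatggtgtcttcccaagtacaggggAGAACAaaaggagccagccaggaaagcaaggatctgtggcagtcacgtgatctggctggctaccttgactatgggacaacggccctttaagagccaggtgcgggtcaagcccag

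The half-site occurred once before *Pbsn*, with its first base at −95 from the start, once before *Pigr*, at −114, and not before *Tgm4*. Before *Sbp*, 1 of 3 RefSeq starts had it, at −64. This half-site and that of *Pbsn* lie inside the GENCODE spans of their genes, given below, which begin further upstream. Of all 32851 promoters of the same length, 16.1% held TGTTCT on either strand. The forkhead (FOXA) motif TGTTTAC, held by 3.17% of promoters, was found before none of these genes. These matches describe letters in the window and not sites of binding.

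In GENCODE M21 (GRCm38, which is mm10), *Sbp* lies at chr17:23941672-23945607, *Msmb* at chr14:32142023-32158370, *Pbsn* at chrX:77837901-77853623, *Tgm4* at chr9:123034726-123067561 and *Pigr* at chr1:130826684-130852249. All 6 are protein-coding. *Sbpl*, a close copy of *Sbp*, lies on the opposite strand, with 7476 bases between the genes. The longest transcripts of the pair were 96.4% identical over 771 aligned bases. Of the 848 words of 31 bases in *Sbpl*, 409 also occur in *Sbp*, so reads could be split or dropped between these genes. *Tgm4* overlaps the antisense gene *Zdhhc3*, and *Msmb* overlaps a pseudogene. No source used here gives the strand setting of the counting, so low counts of *Tgm4* could include reads of *Zdhhc3*.

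Libraries held between 20584363 and 29965355 counts. Levels are CPM, counts scaled to a common library total after TMM, a factor that corrects for a few very abundant genes. The library labelled IgG replicate 3 stood apart from the rest. Its proliferation genes had a mean log2(CPM + 1) of 2.93, against 6.18 to 7.04 in the other 11, and it was highest of the 12 for the lists of luminal, basal, urothelial and smooth muscle genes. Whether it holds mostly tissue other than tumour was not tested, and "tumour" is used for it only as the labels do. Most results for the 6 genes that rest on it are given with and without it. Fold changes of other listed genes, and the medians of the lists, are given only with it included. The labelled tissue is prostate. The prostate homeobox gene *Hoxb13* was detected in all 12 libraries at 8.15 to 91.0 CPM.

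*Sbp*, the ventral lobe gene, was abundant in a single tumour. IgG replicate 3 had 45167 CPM, or 4.823% of its counts (95% Clopper-Pearson interval 4.815 to 4.831%, counting error only). The other IgG tumours had 0 and 0.292 CPM. With anti-CSF1 the values were 0, 0.142 and 0.0355 CPM, with Lupron 0.169, 0.344 and 0, and with the combination 1.53, 0.160 and 0.0344. The largest of these 11 values, in combination replicate 1, rests on 39 counts, and 3 libraries had no count, which allows up to 3 counts in each. *Sbp* had too few libraries with counts to pass the filter of the test, so 5 of the 6 genes were tested. *Sbpl* had 493 counts in IgG replicate 3 and 0 in each of the other 11 libraries.

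*Msmb*, the lateral lobe gene, was also highest in IgG replicate 3, at 1207 CPM, with 1.98 and 3.17 CPM in IgG replicates 1 and 2. No count was found in any of the 3 anti-CSF1 tumours, which allows up to 0.0382 CPM for the group (3 counts over the group, counting error only). Lupron tumours had 0.744, 0.631 and 0.208 CPM. The combination tumours had 89.7, 2.56 and 4.99 CPM. Combination replicate 1 was second of the 12 for *Msmb* as it was for *Sbp*. Against the mean of the 3 IgG tumours, 404 ± 696 CPM (SD), the anti-CSF1 group was at least 10592-fold lower. Against 2.58 CPM, the mean without IgG replicate 3, it was at least 67.5-fold lower. These bounds allow for counting error in the anti-CSF1 group only, and not for the spread between tumours.

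*Spink3*, the trypsin inhibitor, followed *Sbp* and *Msmb* in IgG replicate 3 but not elsewhere. That tumour had 9269.7 CPM, and IgG replicates 1 and 2 had 4.45 and 64.6. Anti-CSF1 tumours had 269.7, 84.8 and 0.960 CPM, Lupron tumours 0, 618 and 49.8, and combination tumours 3.29, 104 and 131. All 4 groups overlapped, and each held both a tumour under 5 CPM and a tumour above 100.

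*Pigr*, the immunoglobulin carrier, was highest in IgG replicate 3 at 1211 CPM, 15.5 times the next tumour, IgG replicate 2, at 78.0, and IgG replicate 1 had 35.0. Anti-CSF1 tumours had 10.7, 6.87 and 6.86 CPM, Lupron tumours 1.72, 52.2 and 35.0, and combination tumours 21.0, 12.5 and 18.8. The 3 anti-CSF1 tumours and the 3 combination tumours all lay below the 3 IgG tumours. Of all tested genes, 23.9% had no overlap between anti-CSF1 and IgG, in either direction, and 27.8% between the combination and IgG. It was present in every tumour, as were *Pbsn* and *Tgm4*.

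*Pbsn*, the dorsolateral lipocalin, was highest in IgG replicate 2 at 10225 CPM, closely followed by Lupron replicate 2 at 9212 and then Lupron replicate 3 at 4821. IgG replicates 1 and 3 had 1351 and 1538 CPM, and Lupron replicate 1 had 77.4. Anti-CSF1 tumours had 536, 4.74 and 109.6 CPM, and combination tumours had 1025, 1471 and 1019. The anti-CSF1 tumours lay below all IgG tumours, where 23.9% of tested genes had no overlap between these groups, in either direction. The Lupron group held both the second highest tumour of the 12 and the second lowest. The combination was the most even group, at 1172 ± 259 CPM (SD, n = 3).

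*Tgm4*, the plug transglutaminase, was highest in the same tumour as *Pbsn*, IgG replicate 2, at 8218 CPM, and next in Lupron replicates 2 and 3 at 1983 and 1843. It was nearly missing from IgG replicate 3, with 5.41 CPM from 152 counts, where IgG replicate 1 had 1011. Lupron replicate 1 had 58.4 CPM, anti-CSF1 tumours had 374, 3.41 and 67.4, and combination tumours had 312, 285 and 619. IgG replicate 3 was eleventh of 12 for *Tgm4* and first for *Sbp*, *Msmb*, *Pigr* and *Spink3*.

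**Figure D1:**
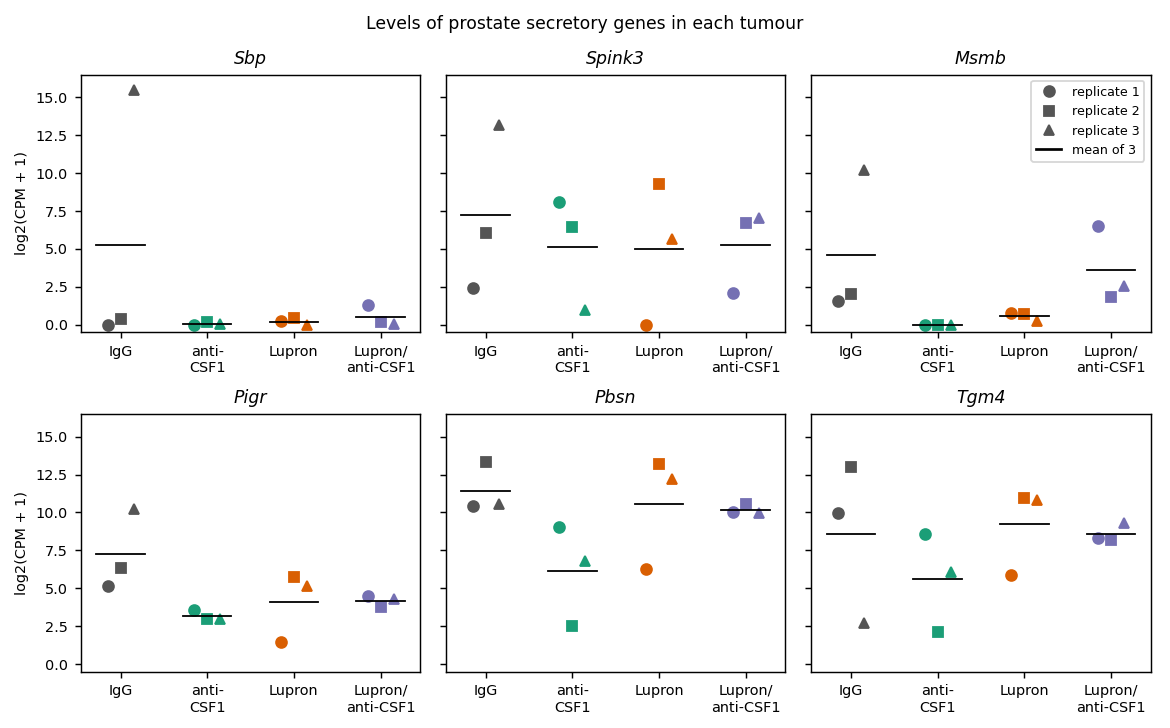
Level of each gene in each tumour, as log2(CPM + 1), by group on the x axis, with 1 symbol per replicate and a line at the mean of 3. IgG replicate 3 (grey triangle) is far above all other tumours for Sbp, and near the bottom for Tgm4 at 5.41 CPM.

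The order of levels between genes was compared per length, as CPM per kilobase of annotated exon. In IgG replicate 3 the order was *Sbp* at 30705, *Spink3* at 12716, *Msmb* at 2050, *Pbsn* at 1705, *Pigr* at 301 and *Tgm4* at 1.19 CPM per kilobase. In IgG replicate 2 it was *Pbsn* at 11336, *Tgm4* at 1804, *Spink3* at 88.6, *Pigr* at 19.4, *Msmb* at 5.39 and *Sbp* at 0.199. *Sbp*, of the ventral lobe, led in the former and *Pbsn* and *Tgm4* in the latter. Anti-CSF1 replicate 2 was unlike both: *Spink3* led at 116 CPM per kilobase, *Pbsn* had 5.25 and *Tgm4* 0.749.

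Relations between the genes were computed over the 12 tumours on log2(CPM + 1), for 15 pairs, with permutation tests adjusted over the pairs. For *Pbsn* and *Tgm4* Pearson's r was 0.78 (permutation p = 0.0028, adjusted p = 0.021) and Spearman's rho 0.713 (p = 0.0113, adjusted p = 0.0844). Without the 2 tumours farthest from the median of *Pbsn*, r was 0.615, and without IgG replicate 3 it was 0.973. For *Pbsn* and *Pigr* rho was 0.874 (p = 0.00038, adjusted p = 0.0057) and r 0.585 (p = 0.0537, adjusted p = 0.126), which became 0.453 without the 2 farthest tumours and 0.831 without IgG replicate 3. For *Tgm4* and *Pigr* r was 0.0344 (p = 0.916, adjusted p = 0.916) and rho 0.538 (p = 0.0745, adjusted p = 0.224). That r was 0.837 without IgG replicate 3, and 0.942 without the 2 tumours farthest in *Tgm4*. The high r of *Sbp* with *Msmb*, 0.851 (p = 0.00213, adjusted p = 0.021; rho 0.574, p = 0.0557, adjusted p = 0.209), was 0.191 without the 2 farthest tumours and so rests on them. Leaving out IgG replicate 3 alone gave 0.844. A similar drop was seen for *Pigr* with *Spink3*, whose r of 0.723 (p = 0.00863, adjusted p = 0.0431; rho 0.49, p = 0.11, adjusted p = 0.275) was 0.201 without the 2 farthest.

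Outside IgG replicate 3, *Spink3* followed the genes of the seminal vesicle, the gland beside the prostate that makes most of the seminal fluid. Over the 11 tumours without IgG replicate 3, r with the mean level of 10 seminal vesicle genes was 0.975 (permutation p = 2e-05, adjusted p = 0.00048) and rho 0.964 (p = 1e-05, the smallest that these permutations can give, adjusted p = 0.00024). Without the 2 tumours farthest from the median r was 0.982. Over all 12 tumours r was 0.443 (p = 0.148, adjusted p = 0.222) and rho 0.58 (p = 0.0513, adjusted p = 0.157). With the luminal list its r over 12 was 0.812 (permutation p = 0.00138, adjusted p = 0.00739; rho 0.692, adjusted p = 0.0756) and with smooth muscle 0.756 (p = 0.0038, adjusted p = 0.0152; rho 0.552, adjusted p = 0.162). Without the 2 farthest tumours these were 0.568 and 0.651, and without IgG replicate 3 they were 0.665 (adjusted p = 0.0674) and 0.549 (adjusted p = 0.171). IgG replicate 3, the tumour with the most *Spink3*, was eleventh of 12 for the seminal vesicle genes, at a mean of 4.81. These p-values were adjusted over 24 relations, of the 6 genes with 4 lists, and the relation was chosen after its values were seen. No other gene of the 6 had an adjusted p under 0.05 with the seminal vesicle list, with or without IgG replicate 3. The 8 genes of pancreatic acinar cells, another cell type that makes *Spink3*, summed to between 0.250 and 2.11 CPM. Of these, *Cpa1*, *Pnlip* and *Amy2a5* had no count in any library, and *Prss2* had at most 51 counts in a library and 0 in IgG replicate 3.

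*Pigr* followed the luminal list of 12 genes, which includes the keratin gene *Krt8*, the adhesion gene *Epcam* and *Cdh1*, with r of 0.935 (p = 3e-05, adjusted p = 0.00036) and rho of 0.839 (p = 0.0011, adjusted p = 0.0132). Without the 2 farthest tumours r was 0.871, and without IgG replicate 3 its value was 0.854 over 11 (permutation p = 0.00091, adjusted p = 0.008). With the smooth muscle list its r was 0.94 (p = 1e-05, the smallest possible, adjusted p = 0.00024; rho 0.888, p = 0.00022, adjusted p = 0.00528) over 12 tumours, and 0.801 without the 2 farthest. *Sbp* with the urothelial list had an r of 0.974 (permutation p = 0.00073, adjusted p = 0.00584; rho 0.521, p = 0.0873, adjusted p = 0.175), but 0.441 without the 2 farthest tumours, so it rests on them. Leaving out IgG replicate 3 alone gave 0.832 (adjusted p = 0.0534). *Tgm4* and the luminal list had an r of 0.0339 (p = 0.917, adjusted p = 0.957; rho 0.462, p = 0.134, adjusted p = 0.197), and 0.682 without the 2 farthest tumours. Without IgG replicate 3 its r was 0.697 (permutation p = 0.0178, adjusted p = 0.0674) and rho 0.836 (p = 0.00216, adjusted p = 0.0173).

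**Figure D2:**
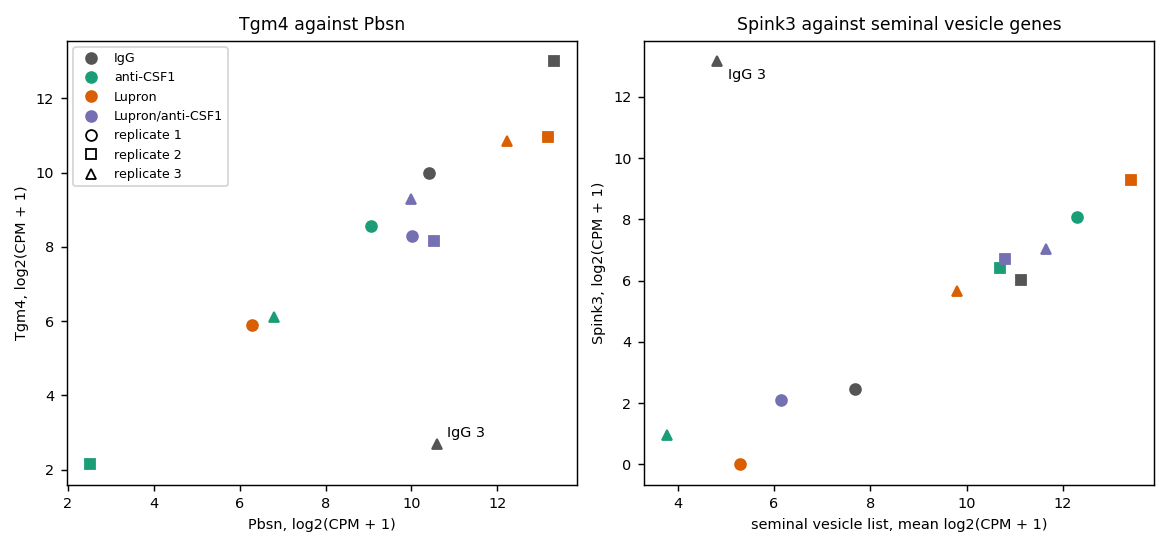
Left, Tgm4 against Pbsn, and right, Spink3 against the mean of 10 seminal vesicle genes, each point a tumour, both axes in log2(CPM + 1). IgG replicate 3 lies off both patterns, and without it r is 0.973 on the left and 0.975 on the right.

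The genes most like each of the 5 tested genes were sought among 12881 genes by Pearson's r over the 12 libraries, as a description. *Tgm4* was closest to *Fam115e* (0.989), the complement protease gene *C1rb* (0.974) and *Ms4a5* (0.941). *Pbsn* was closest to the carboxypeptidase gene *Cpm* (0.938), the growth factor gene *Egf* (0.918) and *Agr2* (0.912), a gene of secretory cells. *Pigr* was closest to the potassium channel gene *Kcnma1* (0.987), *Cdh1* (0.98) and *Hip1r* (0.977). *Msmb* was closest to the protamine gene *Prm2* (0.964), *Psca* (0.959) and the urothelial gene *Upk1a* (0.953), and *Spink3* to *AI463170* (0.919), *Neb* (0.905) and *Bnipl* (0.892). All 15 values were 0.822 or more without IgG replicate 3. For *Msmb* these still include combination replicate 1, at 89.7 CPM against 4.99 in the next tumour, combination replicate 3. Without IgG replicate 3, the r of *Msmb* with the urothelial list, which holds *Upk1a*, was 0.773. It was 0.032 when the 2 tumours farthest from the median of that list were also left out. No such value was computed for *Prm2*, *Psca* or *Upk1a*. All 15 values come from the same 12 libraries.

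Marker lists of other tissues and cell types also differed between tumours. The 5 urothelial genes, which line the bladder and urethra, summed to 3370.4 CPM in IgG replicate 3 and to between 3.95 and 58.8 CPM in the other 11 tumours. Combination replicate 1, next highest for *Sbp* and *Msmb*, was next highest for the mean log2(CPM + 1) of the urothelial list, at 3.24 against 8.82. By summed CPM IgG replicate 2, at 58.8, lay above it, at 52.0. The 10 smooth muscle genes summed to 661 to 12596 CPM with IgG, 438 to 651 with anti-CSF1, 395 to 1729.8 with Lupron and 432 to 822 with the combination. The 12 luminal genes summed to 653 to 3344 CPM with IgG, 289 to 729 with anti-CSF1, 322 to 1061 with Lupron and 433 to 633 with the combination. The 5 basal genes summed to 19.4 to 1309, 8.92 to 17.9, 8.12 to 26.5 and 12.5 to 38.0 CPM in the same order, and the 10 seminal vesicle genes to 527 to 107781, 279 to 105224, 9271 to 383936 and 3660 to 78419. No gene of the luminal, basal, smooth muscle or seminal vesicle lists was at 0 throughout a group, and 1 urothelial gene was with anti-CSF1. The part of other tissue in the levels of the 6 genes was not tested, and in bulk RNA fewer cells of a type and less RNA in each of them cannot be told apart.

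**Figure D3:**
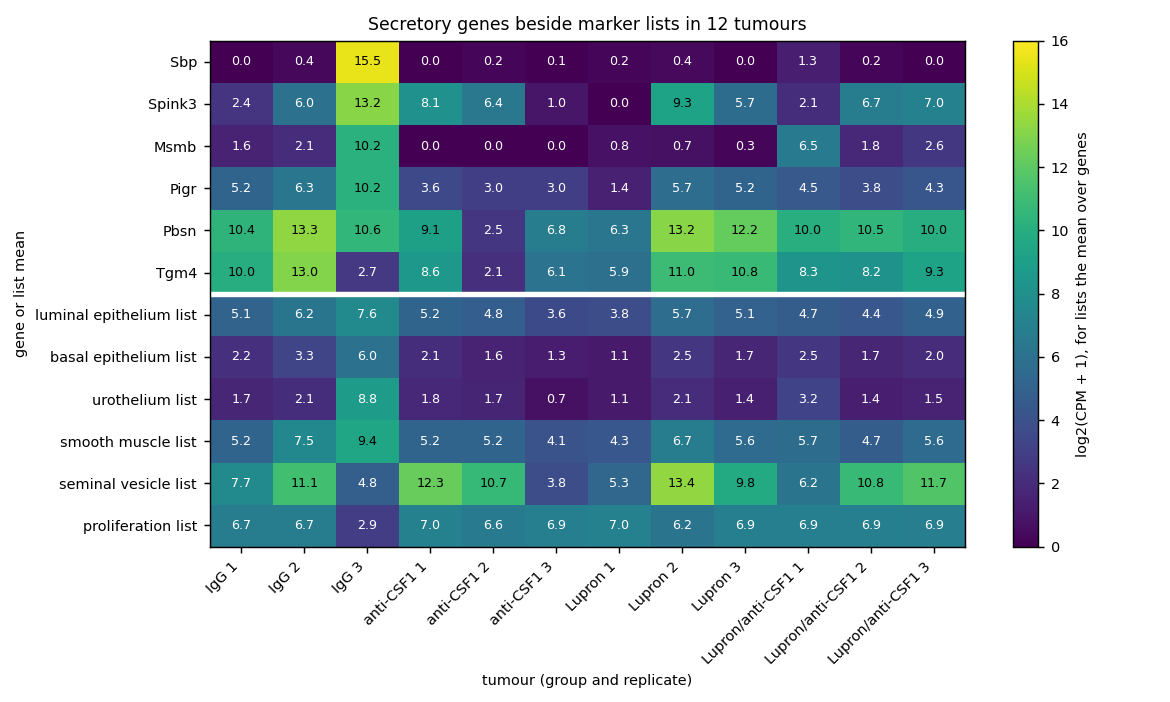
Level of the 6 genes (top) and mean level of 6 marker lists (bottom) in each of 12 tumours, both as log2(CPM + 1), with the value printed in each cell. The column of IgG replicate 3 has the highest values of Sbp, Spink3, Msmb and Pigr and of 4 lists, and the lowest of proliferation genes.

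Blocking CSF1 was compared over both Lupron states, 6 tumours against 6. By the quasi-likelihood test of edgeR none of the 5 tested genes passed at an adjusted p (Benjamini-Hochberg) under 0.05, where 1.87% of all 15082 tested genes did. At an unadjusted p under 0.05 there were 3 of 5, where 19% of all tested genes were. DESeq2 called *Pbsn* and *Pigr*, 2 of the 3 for which it gave an adjusted p, and 9% of all genes. The log2 fold changes were −3.17 ± 1.13 (SE) for *Pbsn* (adjusted p = 0.178), −3.02 ± 1.36 for *Tgm4* (0.259), −3.26 ± 0.91 for *Pigr* (0.108) and −3.10 ± 1.90 for *Spink3* (0.382). *Msmb*, absent from a group, had an adjusted p of 0.319. Without IgG replicate 3, *Pbsn* stood at −3.37 ± 1.24, *Tgm4* at −3.32 ± 1.17, *Pigr* at −1.77 ± 0.63 and *Spink3* at 0.15 ± 1.68, with adjusted p from 0.216 to 0.979. *Pigr* passed without IgG replicate 1 (adjusted p = 0.0269). *Sbp*, which the filter keeps there, had an adjusted p of 0.0462, which rests on IgG replicate 3, the single tumour where it was abundant. Without IgG replicate 2 instead, its adjusted p was 0.159. In the fit without IgG replicate 1, 10.1% of all genes passed. The 6 tumours with the antibody overlapped with the 6 without it for each of the 5 genes, where 2.39% of tested genes had no overlap.

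Lupron was compared over both antibody states, since these genes depend on androgen in the normal gland. No tested gene passed (0 of 5 with edgeR's quasi-likelihood test, 0 at an unadjusted p under 0.05 and 0 of 3 with DESeq2), and 0% of all tested genes did. Over all genes, 9.06% had an unadjusted p under 0.05 and DESeq2 called 0.0612%. The fit omitting IgG replicate 1 called 0 of the 6 genes and 0.0128% of all. *Pbsn* had a log2 fold change of 1.27 ± 1.05 (adjusted p = 0.626), from group means of 4371 ± 5071 CPM with IgG and 217 ± 281 with anti-CSF1 to 4704 ± 4569 with Lupron and 1172 ± 259 with the combination (SD, n = 3). *Tgm4* stood at 0.10 ± 1.26 (0.979), *Pigr* at −1.40 ± 0.85 (0.551), *Spink3* at −2.19 ± 1.84 (0.628) and *Msmb* had an adjusted p of 0.859. Without IgG replicate 3, *Pigr* stood at 0.08 ± 0.63, *Spink3* at 1.05 ± 1.72 and *Tgm4* at −0.19 ± 1.10, so these 3 changed sign. *Tgm4* also did so without IgG replicate 1, at −0.10. All 5 genes overlapped between the 6 tumours with and the 6 without Lupron, where 0.431% of tested genes did not.

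**Figure D4:**
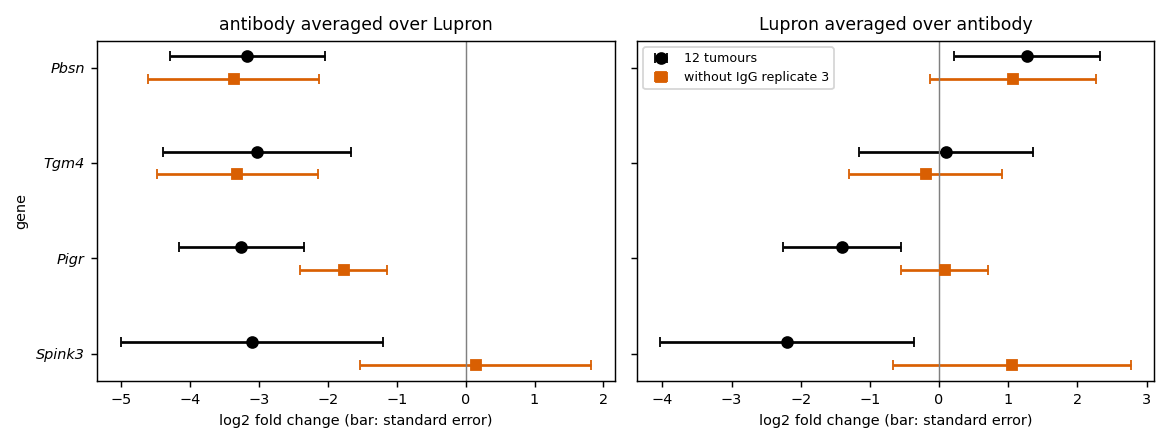
Log2 fold change with its standard error (bar) for the 4 tested genes with counts in every group, for the antibody (left) and Lupron (right), in all 12 tumours (black) and without IgG replicate 3 (orange). Spink3 moves from −3.10 to 0.15 on the left, while Pbsn stays near −3.

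Each treatment was also set against IgG, in comparisons of 3 tumours with 3 that share the IgG tumours. None of the 5 genes passed in any of these by edgeR's quasi-likelihood test, where 0.00663%, 0% and 0.00663% of tested genes did for anti-CSF1, Lupron and the combination. At an unadjusted p under 0.05 there were 3, 2 and 1 of 5, where 22.8%, 16.4% and 26% of all tested genes were. DESeq2 called 2, 0 and 1 of 3, and 11.5%, 2.78% and 13.1% of all genes. Anti-CSF1 alone had adjusted p-values of 0.0903 for *Pigr* (−5.76 ± 1.45), 0.0943 for *Msmb*, 0.168 for *Pbsn* (−4.33 ± 1.68), 0.229 for *Tgm4* (−4.37 ± 2.05) and 0.336 for *Spink3* (−4.72 ± 2.90). *Pbsn*, *Pigr* and *Msmb* had no overlap between anti-CSF1 and IgG, 3 of 5, where 23.9% of tested genes had none. For Lupron alone *Msmb* had no overlap, 1 of 5 against 19.7%, and for the combination *Pigr*, 1 of 5 against 27.8%. Lupron alone gave 0.11 ± 1.47 for *Pbsn* (adjusted p = 0.973) and −3.90 ± 1.32 for *Pigr* (0.284), and the combination gave −1.90 ± 1.52 (0.428) and −4.66 ± 1.37 (0.115). Lupron alone gave −1.25 ± 1.81 for *Tgm4* (0.720), −3.81 ± 2.78 for *Spink3* (0.468) and an adjusted p of 0.284 for *Msmb*. The combination gave −2.92 ± 1.92 for *Tgm4* (0.338), −5.30 ± 2.98 for *Spink3* (0.272) and −3.64 ± 2.18 for *Msmb* (0.306). Leaving out IgG replicate 1, *Pigr* passed for anti-CSF1 (adjusted p = 0.0151) and the combination (0.0273), and *Msmb* passed for anti-CSF1 (0.0226). *Sbp*, which the filter keeps there, had 0.015 for anti-CSF1, 0.0402 for Lupron and 0.0231 for the combination. These *Sbp* values rest on IgG replicate 3, at 45167 CPM against 0.292 in IgG replicate 2. Without IgG replicate 2 instead, *Sbp* had 0.115, 0.222 and 0.130. Over all genes 16.8%, 4.19% and 14.2% passed in the fit without IgG replicate 1. *Spink3* changed sign in all 3 comparisons when IgG replicate 3 was left out, to 1.78 ± 2.67, 2.69 ± 2.79 and 1.20 ± 2.60, and *Msmb* did so for the combination, to 3.65 ± 1.59. *Pigr* without that library stood at −2.79 ± 0.94, −0.94 ± 0.91 and −1.69 ± 0.92 for anti-CSF1, Lupron and the combination (adjusted p = 0.234, 0.809 and 0.416).

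Whether the antibody acted differently with Lupron was tested as an interaction, in which 0 of 5 genes passed and 0% of all tested genes did (edgeR), with 2 of 5 at an unadjusted p under 0.05 and 0 of 3 called by DESeq2. Over all genes these shares were 6.77% and 1.3%. The fit omitting IgG replicate 1 called 0 of the 6 and 0.0321% of all. *Msmb* had an adjusted p of 0.488 (edgeR) and *Pigr* of 0.61. The values for *Pbsn* were 2.33 ± 2.10 (adjusted p = 0.855), for *Tgm4* 2.70 ± 2.57 (0.855) and for *Spink3* 3.23 ± 3.60 (0.864). The value for *Spink3* was of the opposite sign without IgG replicate 3, −3.27 ± 3.52.

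The ratio of *Tgm4* to *Pbsn* within a tumour does not depend on the library scaling. It was 0.748 and 0.804 in IgG replicates 1 and 2, and 0.00352 in IgG replicate 3. Anti-CSF1 tumours had 0.699, 0.72 and 0.615, Lupron tumours 0.755, 0.215 and 0.382, and combination tumours 0.304, 0.194 and 0.608. With IgG replicate 3 left out, the 5 tumours without Lupron were close together, and 5 of the 6 with Lupron lay below all of them. Their mean log2 ratio was −0.49 ± 0.14 (SD, n = 5) without Lupron and −1.47 ± 0.79 (n = 6) with it, a difference of −0.98 (exact two-sided permutation test, p = 0.0303, adjusted p = 0.108 over 4 tests). Over all 12 tumours the difference was 0.29 (exact permutation p = 0.987, adjusted p = 0.987). For *Pigr* over *Pbsn* the difference with Lupron was −2.76 (exact p = 0.039, adjusted p = 0.156), or −2.10 without IgG replicate 3 (exact p = 0.0541, adjusted p = 0.108). Neither ratio passed after adjustment.

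**Figure D5:**
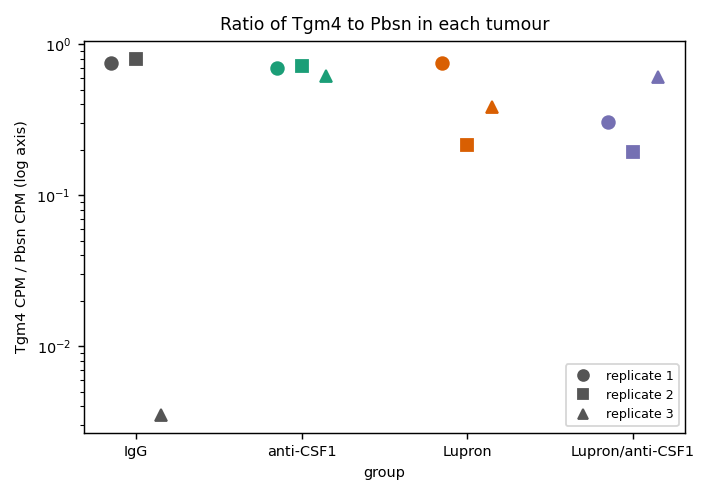
Ratio of Tgm4 CPM to Pbsn CPM in each tumour on a log axis, by group, with 1 symbol per replicate. Tumours without Lupron sit between 0.615 and 0.804 except IgG replicate 3 at 0.00352, and those with Lupron between 0.194 and 0.755.

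Of 12 other prostate secretory genes listed, 11 were in the table and 9 were tested, and none passed for the antibody (median log2 fold change −2.31, against 0.021 over all tested genes) or Lupron (0.065, against −0.023). *Azgp1*, a zinc-binding glycoprotein of secretory epithelia, had −3.46 ± 0.96 for the antibody (adjusted p = 0.105) and *Defb50*, a defensin, −3.12 ± 0.93 (0.126). IgG replicate 3 was highest for both, at 244 and 2323 CPM, against at most 94.2 and 230 in the others. *Crisp1*, a sperm-coating protein, had 361, 836 and 2876 CPM with IgG, 0, 0 and 0.142 with anti-CSF1, 185, 0.0574 and 0.208 with Lupron and 451, 0 and 23.1 with the combination, with 3.51 ± 2.05 for Lupron (0.535). *Acpp*, prostatic acid phosphatase, had −0.52 ± 0.25 for Lupron (0.525). *Spink5*, an inhibitor of the same family as *Spink3*, named after its values were seen, had 2558 CPM in IgG replicate 3 and at most 3.84 in the other 11.

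Among 15 listed genes of androgen signalling in the prostate, 14 were tested. For the antibody 0 were called higher and 1 lower, *Tmprss2*, a surface protease (−3.16 ± 0.69, adjusted p = 0.0452), which passed in 2 of the 12 leave-one-out fits (IgG replicate 1 or Lupron replicate 1 omitted). *Slc45a3*, a transporter of prostate epithelium, had −2.01 ± 0.55 (0.105). For Lupron 0 were called and 13 of 14 estimates were negative, with a median of −0.61 and *Hoxb13* at −0.76 ± 0.36 (0.525). Of all 15082 tested genes 7893 were negative. All 12 luminal, 5 basal, 5 urothelial and 10 smooth muscle genes were negative too, while all 10 seminal vesicle and 9 of 10 proliferation genes were positive. IgG replicate 3, which is included, was also highest for the androgen list, at a mean log2(CPM + 1) of 6.04 against 5.03 in IgG replicate 2, the next.

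In the other lists no gene passed for Lupron, and for the antibody only macrophage genes did, 8 of 10, all lower. Of these, 5 passed in all 12 leave-one-out fits, *C1qc* in 11 (not without anti-CSF1 replicate 3), *Cd68* in 4 and *Lyz2* in 3. The 5 include *C1qb* (−2.46 ± 0.32, adjusted p = 0.00798) and *Csf1r*, the receptor of CSF1 (−2.38 ± 0.31, 0.00798). For Lupron *Mrc1* had −0.45 ± 0.24 (0.526) and *Cd163* −0.51 ± 0.33 (0.564). The antibody medians were −1.23 for 12 luminal, −2.25 for 5 basal, −3.01 for 5 urothelial, −2.35 for 10 smooth muscle, 0.43 for 10 seminal vesicle and 0.38 for 10 proliferation genes. The Lupron medians were −0.80, −1.43, −2.29, −0.98, 1.04 and 0.29 in that order. Both sets of medians include IgG replicate 3, the highest library for the luminal, basal, urothelial and smooth muscle lists. Medians without it are not given. The luminal gene *Spint1*, a protease inhibitor, had −2.03 ± 0.46 for the antibody (0.0545), *Epcam* −1.55 ± 0.53 (0.167), and for Lupron *Krt8* had −1.27 ± 0.37 (0.525). The basal regulator *Trp63* had −3.09 ± 0.91 for the antibody (0.122), and the urothelial genes *Upk1b* −3.01 ± 0.99 (0.155) and *Upk1a* −3.62 ± 1.46 (0.219). In IgG replicate 3 these genes had 243, 720 and 1433 CPM, against at most 18.6, 51.1 and 17.8 in the other libraries. Of 8 genes of polymeric immunoglobulin and plasma cells, the cargo of *Pigr* and its makers, 5 were tested. They had a median of −2.19 for the antibody, with *Igj*, the joining chain, at −1.95 ± 0.77 (0.209) and *Derl3* at −2.41 ± 0.63 (0.0872), and of −0.12 for Lupron. The 1 acinar gene tested, *Prss2*, had 1.49 ± 0.73 for the antibody (0.293).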

How the data were processed

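RNA from 12 tumours, 3 per group, was sequenced as bulk libraries (NuGen Ovation Mouse RNA-Seq), per the labels' protocols. The deposited values are raw read counts per gene symbol, with no normalization by the authors. The tools named in the submitters' processing notes are bcl2fastq 2.20.0.422, cutadapt 1.8.1 and HTSeq 0.6.1, with build mm10. No source used here gives the aligner, annotation or strand setting.

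The analysis used edgeR 4.0.16 in R 4.3.3: default filter over the 4 groups (15082 genes), TMM factors, 1 mean per group over 12 libraries, robust quasi-likelihood fit, two-sided F test and Benjamini-Hochberg adjustment over all tested genes, with calls at 0.05. SE is the log2 fold change over the root of F. DESeq2 1.42.0 was an alternative, beside other scalings, filters, left-out libraries and a block on replicate number. The fit was also run on simulated data. These had the same dispersion for all genes and no outlying library, so they cannot show how the fit performs on these tumours. The labels do not number the mice, so p-values measure only the spread between these samples, part of which may be technical.

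The 6 genes and all lists (other prostate secretory, androgen, luminal, basal, seminal vesicle, urothelial, acinar, smooth muscle, polymeric immunoglobulin, proliferation and macrophage genes) were chosen with earlier results of these data known. Of their symbols, 3 (Pate1, Igha and Ighm) had no row. Named were the 6 genes, some genes of each list among the 2 with the smallest p per averaged comparison, and the 3 genes most like each tested gene with a mean of at least 1 CPM. Spink5, the 3 acinar genes at 0, ratios and relations to lists were chosen after values were seen. Promoters are from RefSeq (GRCm38.p6); 4 of the 6 genes were matched.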

Additional observations from a re-analysis of the deposited data

Results flagged for a closer look

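Msmb moved in opposite directions with and without the other treatment. With Lupron present, the 3 tumours given the antibody lay above the 3 that were not, by a mean of 31.9 CPM, while without Lupron all 3 antibody tumours (no counts) lay below the 3 IgG tumours. Likewise, with the antibody present the 3 Lupron tumours lay above the others by a mean of 32.4 CPM, and without it below. Of all tested genes, 23.9% had no overlap between anti-CSF1 and IgG, and 19.7% between Lupron and IgG. The shares for the combination against Lupron and against anti-CSF1 were not computed. Tested as an interaction over all genes with edgeR, the difference had an adjusted p of 0.488. Over the fits without 1 library the adjusted p ran from 0.0783 to 1.00. Combination replicate 1, with 89.7 CPM, makes up most of both means; the other combination tumours had 2.56 and 4.99 CPM.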

How the results depend on the processing

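The count of the 5 tested genes that passed was 0 in each of the 6 comparisons. Under DESeq2 it was 2 for the antibody averaged over Lupron, 2 for anti-CSF1 and 1 for the combination against IgG, with no adjusted p for Msmb and Spink3. In the 12 fits that left out 1 library it ran from 0 to 2 for the averaged antibody effect, 0 to 3 for anti-CSF1, 0 to 1 for Lupron and 0 to 2 for the combination against IgG. All these gains came without IgG replicate 1, and 1 call in each range is Sbp. It passes the low-count filter in that fit, so that 6 genes are tested there. Its calls rest on IgG replicate 3, with 1268676 counts, where combination replicate 1, the next, had 39. Other scalings, filters, the 2-group fits and the fit with a replicate block gave 0.

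Of 573 alternative values of single genes, 534 kept their direction and side of the threshold, 9 passed and 30 changed sign. Over the fits without 1 library, log2 values ran for Spink3 from −3.83 to 0.15 (antibody), −3.79 to 1.05 (Lupron), −3.27 to 6.42 (interaction), −6.17 to 1.78 (anti-CSF1), −7.00 to 2.69 (Lupron against IgG) and −5.89 to 1.20 (combination). For Tgm4 they ran from −0.19 to 1.40 (Lupron averaged) and −1.83 to 1.35 (Lupron against IgG), for Pigr from −1.75 to 0.082 (Lupron averaged), for Pbsn from −0.87 to 1.71 (Lupron against IgG) and for Msmb from −6.74 to 3.65 (combination). Without IgG replicate 3 all these values of Spink3, Msmb and Pigr, and those of Tgm4 (Lupron averaged) and Pbsn, changed sign. Tgm4 (Lupron averaged), at 0.10 ± 1.26 over all libraries, also did so without others, such as IgG replicate 1 (−0.10) or anti-CSF1 replicate 2 (−0.19). Pbsn stood at −0.30 without IgG replicate 3, so its lowest value came without another library. The cause was not tested.

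Without IgG replicates 2 and 3 together, where the lone IgG tumour is assumed to vary like the others, Spink3 stood at 1.62 (antibody), 2.52 (Lupron), −6.20 (interaction), 4.72 (anti-CSF1), 5.62 (Lupron against IgG) and 4.14 (combination), Pigr at 0.42 (Lupron averaged), Tgm4 at 0.34 (Lupron against IgG) and Msmb at 4.02 (combination).

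Whether replicate numbers pair the tumours was not settled. Deviations from group means correlated from −0.30 to 0.51 over 18 same-numbered pairs, above 0.1 in 8. Differently numbered pairs were not compared. With the replicate block Spink3 stood at −1.43 (interaction) and 0.19 (anti-CSF1).

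Over all genes, the averaged antibody effect had 282 calls, 1418 with DESeq2, 151 with the replicate block and 65 to 1577 without 1 library. DESeq2 called 11 genes for Lupron averaged, 209 for the interaction, and 1855, 427 and 2011 for anti-CSF1, Lupron and the combination against IgG, where edgeR called 0, 0, 1, 0 and 1 (1366, 1021, 3446, 2478 and 3922 at an unadjusted p under 0.05). Without 1 library those edgeR counts reached 2, 5, 2611, 653 and 2213, each without IgG replicate 1.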
